A study of Mus musculus with 10 samples.

Results

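The 9 genes described here are a fixed set of liver sugar metabolism genes. They encode 4 enzymes of glucose production (Pck1, G6pc, Fbp1 and Pcx), a coactivator that drives that program (Ppargc1a), the last enzyme of glycolysis in liver (Pklr), the hepatocyte glucose transporter (Slc2a2), and the liver enzymes that build and break down glycogen (Gys2 and Pygl). They were found by gene symbol, and all 9 are among the 24972 symbols of the deposited table. All 9 passed the filter on low values. The mouse livers, of genotype WT, are each labelled with a cultured tumour line derived from KPC mice, a model of pancreatic ductal adenocarcinoma (PDAC). The T cell-low group (n = 4) is labelled with line 6419c1, of the T cell-low PDAC class, and the T cell-high group (n = 6) with line 6555c3, of the T cell-high class. Each class is 1 line, so line and T cell class cannot be told apart, and the labels used here do not say how or when the mice received the cells. Mouse age, sex, time of day and feeding are not given in the labels used here, and it is not said whether the libraries are from separate mice. P-values therefore cover only the variation among the sequenced libraries, part of which may be technical.

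The liver keeps blood glucose steady by releasing it between meals and storing it after them. Glucose is made from lactate, amino acids and glycerol by enzymes that bypass the one-way steps of glycolysis, and it is also freed from glycogen. Glucagon, acting through cAMP, and glucocorticoids raise the genes of glucose production, whereas insulin lowers them and raises glycolysis and glycogen synthesis. These genes are also known to vary with feeding and the time of day.

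RNA was read from transcript 3′ ends, and each value is a scaled count, the deposited gene-level value after the authors' scaling to a common depth. Scaled totals were 7060777 to 8257373 in the T cell-low group, against 7000659 to 7513620 in the T cell-high group. T cell-low 1 correlated less with its own group (mean r of 0.861 over tested genes) than with the T cell-high libraries (0.936). T cell-high 1, 3, 5 and 6 were treated as a set, taken from an earlier analysis of these same data. Their mean correlations with the T cell-low libraries were 0.853, 0.854, 0.833 and 0.841, against 0.882 and 0.885 for T cell-high 2 and 4. Within its own group, T cell-high 4 (0.936) lay close to T cell-high 5 and 6 (0.937 and 0.939). A fit with these 4 libraries of the set as a covariate (the 4-library covariate) compares T cell-low with T cell-high 2 and 4 alone. Summed hepatocyte markers (7 genes) were 471400 to 649200 scaled counts in the T cell-low group, against 299800 to 562300 in the T cell-high group, and 2 of the 7 (Apoa1 and Apob) were called higher.

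Of the 9 genes, 1 was called lower in T cell-low livers, namely Pygl, and 0 were called higher (limma, Benjamini-Hochberg adjusted p below 0.05 over all genes tested). Among all 11110 genes tested, 12.8% were called, with 7.39% of tested genes lower and 5.39% higher, so 1 call in 9 genes is near the background. At an unadjusted p below 0.05 the count was 4 of 9 genes, against 34.5% of all tested genes. The groups overlapped for all 9 genes, whereas 7.39% of all tested genes showed no overlap. The median absolute log2 fold change was 0.543 over the 9 genes and 0.501 over all tested genes. Leaving out T cell-low 1 raised the calls to 2 higher (Pcx and Ppargc1a) and 2 lower (Fbp1 and Pygl). No gene of the 9 was called on omitting T cell-low 2 or 4, on omitting T cell-high 1, 3 or 5, or with the 4-library covariate. Fewer cells of a type and less RNA per cell cannot be told apart in whole liver.

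**Figure D1:**
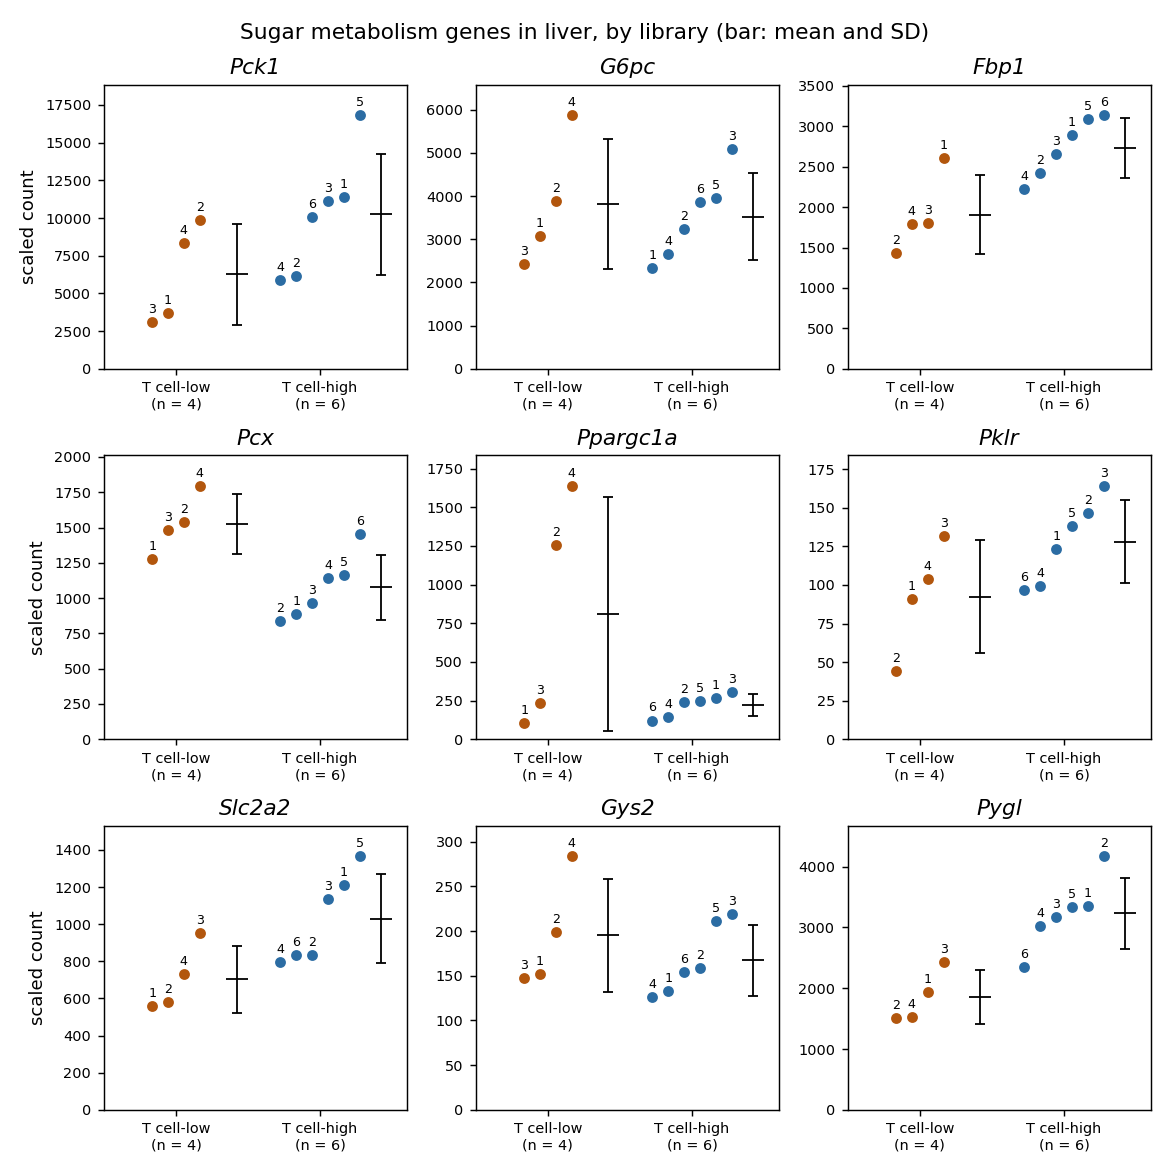
Scaled count of each of the 9 genes in every library, with the library number above each point, T cell-low on the left and T cell-high on the right, and the group mean and SD as bars. Ppargc1a reached 1257 and 1638 in T cell-low 2 and 4 and at most 305 in any other library.

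Pygl, the liver glycogen phosphorylase that frees glucose 1-phosphate from glycogen, was the member that passed the test. The gene lies on the minus strand of chromosome 12, 70190811 to 70231488 (mm10, GENCODE vM21). T cell-low livers 1 to 4 had 1945, 1511, 2438 and 1526 scaled counts, against a lowest, median and highest value of 2357, 3253 and 4170 in T cell-high livers. Of the T cell-low libraries, 3 lay below every T cell-high library, and T cell-low 3 lay just above the lowest, T cell-high 6. The means were 1855 ± 438 in the T cell-low group, against 3236 ± 586 in the T cell-high group (SD, n = 4 and n = 6). The log2 fold change (log2FC, T cell-low minus T cell-high) was -0.81 (SE 0.20, 95% interval -1.25 to -0.37, adjusted p = 0.0286, limma). An exact two-sided permutation test of this gene alone gave p = 0.00952, where 0.00476 is the smallest p that 4 against 6 libraries allow.

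The Pygl call depended on single libraries, although its size did not. The adjusted p (limma) was 0.100 on omitting T cell-low 2 and 0.0874 on omitting T cell-low 4. It was 0.0636, 0.0599 and 0.0614 on omitting T cell-high 1, 3 and 5. Over the 10 fits that leave out 1 library the log2 fold change stayed between -0.952 and -0.722. With the 4-library covariate it was -0.97 (adjusted p = 0.183).

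Gys2, the liver glycogen synthase, did not pass. Its values were 151, 199, 147 and 284 scaled counts in T cell-low livers 1 to 4, against a lowest, median and highest value of 126, 156 and 219 in T cell-high livers. T cell-low 4 held the highest value of all, and the other T cell-low libraries lay inside the T cell-high range. This was a log2FC of 0.20 (SE 0.25, 95% interval -0.33 to 0.74, adjusted p = 0.581, limma). The log2 difference of Gys2 minus Pygl within a library, which hardly depends on the scaling of that library, was -3.26 ± 0.73 in the T cell-low group, against -4.28 ± 0.40 in the T cell-high group (SD, n = 4 and n = 6). The groups overlapped, since T cell-low 3 (-4.04) lay inside the T cell-high range of -4.71 to -3.85. The same difference for Pck1 minus Pklr was 6 ± 1.39 in the T cell-low group, against 6.24 ± 0.57 in the T cell-high group. For Fbp1 minus Pfkl, a gene of the glycolysis list, it was 3.29 ± 0.41, against 3.59 ± 0.28. The groups overlapped for these pairs too. These within-library differences are descriptions, with no test.

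**Figure D2:**
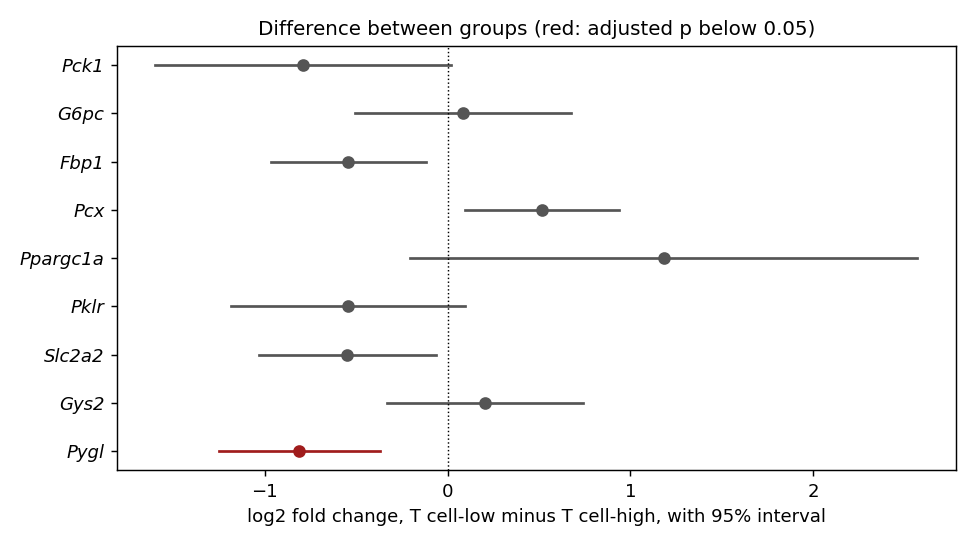
Log2 fold change of each of the 9 genes, T cell-low minus T cell-high, with the 95% interval of the moderated test. Pygl at -0.81 is the gene with an adjusted p below 0.05, and the widest interval is that of Ppargc1a.

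The 4 enzymes of glucose production had fold changes of both signs, and 0 of them passed. Pck1, cytosolic phosphoenolpyruvate carboxykinase, makes phosphoenolpyruvate from oxaloacetate, and lies on the plus strand of chromosome 2, 173153048 to 173159273. T cell-low livers 1 to 4 had 3701, 9875, 3113 and 8339 scaled counts, against a lowest, median and highest value of 5918, 10611 and 16813 in T cell-high livers. T cell-low 1 and 3 lay below every T cell-high library, while T cell-low 2 and 4 lay within their range. The means were 6257 ± 3359 in the T cell-low group, against 10249 ± 4023 in the T cell-high group (SD, n = 4 and n = 6). The log2 fold change was -0.79 (SE 0.37, 95% interval -1.60 to 0.02, adjusted p = 0.154, limma) and -0.12 with the 4-library covariate. T cell-high 2 and 4 had the lowest T cell-high values (6140 and 5918).

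G6pc, the catalytic subunit of glucose-6-phosphatase, performs the last step of glucose release. Its values were 3073, 3894, 2427 and 5871 scaled counts in T cell-low livers 1 to 4, against a lowest, median and highest value of 2325, 3557 and 5099 in T cell-high livers. The groups overlapped almost fully, with T cell-low 4 the highest library. This was a log2FC of 0.08 (SE 0.27, 95% interval -0.51 to 0.68, adjusted p = 0.848, limma), and it turned to -0.04 when each library was scaled to an equal total.

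Fbp1, fructose-1,6-bisphosphatase of liver, reverses the committed step of glycolysis. T cell-low livers 1 to 4 had 2603, 1436, 1803 and 1791 scaled counts, against a lowest, median and highest value of 2219, 2779 and 3137 in T cell-high livers. T cell-low 2, 3 and 4 lay below every T cell-high library and T cell-low 1 lay inside their range. The log2 fold change was -0.54 (SE 0.20, 95% interval -0.97 to -0.12, adjusted p = 0.078, limma). On omitting T cell-low 1 it was -0.70 and passed (adjusted p = 0.0114), and with the 4-library covariate it was -0.31 (adjusted p = 0.518).

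Pcx, the mitochondrial pyruvate carboxylase that makes oxaloacetate from pyruvate, had the opposite sign. Its values were 1275, 1538, 1485 and 1795 scaled counts in T cell-low livers 1 to 4, against a lowest, median and highest value of 836, 1056 and 1456 in T cell-high livers. All T cell-low libraries lay above 5 of the 6 T cell-high libraries, and T cell-high 6 overlapped them. This was a log2FC of 0.52 (SE 0.20, 95% interval 0.09 to 0.94, adjusted p = 0.0881, limma). It was 0.60 and passed on omitting T cell-low 1 (adjusted p = 0.0399), and it was 0.63 with the 4-library covariate (adjusted p = 0.266).

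Ppargc1a encodes PGC-1 alpha, a coactivator that fasting and glucagon are known to raise in liver and that acts with FOXO1 and HNF4 alpha on genes such as Pck1 and G6pc. The gene lies on the minus strand of chromosome 5, 51454250 to 51567726. T cell-low livers 1 to 4 had 106, 1257, 234 and 1638 scaled counts, against a lowest, median and highest value of 121, 244 and 305 in T cell-high livers. T cell-low 2 and 4 lay above every other library, T cell-low 3 lay inside the T cell-high range, and T cell-low 1 was the lowest of all. The means were 809 ± 756 in the T cell-low group, against 221 ± 72.5 in the T cell-high group (SD, n = 4 and n = 6), a ratio of 3.67. The spread within T cell-low livers was a coefficient of variation of 93.5%, the largest of the 9 genes in either group. The log2 fold change was 1.18 (SE 0.64, 95% interval -0.21 to 2.57, adjusted p = 0.206, limma). It was 1.90 and passed on omitting T cell-low 1 (adjusted p = 0.0156), and the highest adjusted p was 0.534 on omitting T cell-low 4.

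Promoter sequence is shown for Pygl, the gene that passed, and for Ppargc1a and Pck1, whose values differed most among the T cell-low livers. Each run spans 250 bases before to 50 bases after the start annotated there, 5′ to 3′ on the gene's strand, from RefSeq on GRCm38.p6, the assembly named mm10. Capitals mark the letters CGTCA, the reverse complement of the cAMP response core site TGACG, whose full form TGACGTCA binds the glucagon-responsive factor CREB. The 3 sequences lie at chr12:70227634-70227933, chr5:51567676-51567975 and chr2:173152823-173153122, on the minus, minus and plus strands.
Pygl: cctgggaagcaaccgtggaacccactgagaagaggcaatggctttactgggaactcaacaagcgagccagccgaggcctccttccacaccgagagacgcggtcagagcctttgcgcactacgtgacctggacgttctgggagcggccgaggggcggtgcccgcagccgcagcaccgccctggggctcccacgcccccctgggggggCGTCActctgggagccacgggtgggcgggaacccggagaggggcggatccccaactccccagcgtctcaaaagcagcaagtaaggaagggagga
Ppargc1a: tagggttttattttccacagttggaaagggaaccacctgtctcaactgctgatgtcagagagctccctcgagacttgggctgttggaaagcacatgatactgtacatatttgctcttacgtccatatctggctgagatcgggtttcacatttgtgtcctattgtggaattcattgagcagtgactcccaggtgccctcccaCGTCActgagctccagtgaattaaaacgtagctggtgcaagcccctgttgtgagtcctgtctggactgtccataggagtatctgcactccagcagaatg
Pck1: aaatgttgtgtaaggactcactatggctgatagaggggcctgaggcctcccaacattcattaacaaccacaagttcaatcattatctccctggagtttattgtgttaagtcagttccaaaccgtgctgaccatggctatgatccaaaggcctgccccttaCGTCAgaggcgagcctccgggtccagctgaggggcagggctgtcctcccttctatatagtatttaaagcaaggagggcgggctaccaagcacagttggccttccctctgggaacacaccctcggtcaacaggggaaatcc

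The core site starts 44 bases before the RefSeq start in Pygl, 49 bases before it in Ppargc1a and 90 bases before it in Pck1. The Pygl run lies inside the GENCODE span of the gene (70190811 to 70231488), since RefSeq and GENCODE place its start differently. It was found on either strand in 3 of the 10 promoters listed for the 9 genes, and in 20.9% of all 32544 distinct promoters of this length. No promoter is listed there for Gys2, and Pcx and Pklr have 2 each. The full element TGACGTCA occurs in 0 of these 10 promoters and in 1.8% of all, and the FOXO letters TGTTTAC in 0 and in 3.66%. The E-box letters CACGTG occur in 1, a Pcx promoter, and in 7.17% of all. The insulin response core TGTTTTG occurs in 1, the G6pc promoter, and in 6.32% of all. A STAT site TTCNNNGAA was found in 0 of the 10 and in 8.33% of all, and a C/EBP site TTGCNNAA in 0 and in 10.8%. These are matches of letters on both strands, with no binding data in this study.

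Over the 10 libraries, the 2 genes closest to Ppargc1a among 7736 other genes with a mean of at least 50 were Tiparp, an ADP-ribosyltransferase, and Got1, the cytosolic aspartate aminotransferase. Their log2 deviations differed from those of Ppargc1a by a root mean square of 0.365 and 0.428, where Ppargc1a itself deviated by 1.25. Got1, also a gene of the gluconeogenesis list, had 1356, 12564, 2034 and 18314 scaled counts in T cell-low livers 1 to 4, against a lowest and highest value of 1359 and 4108 in T cell-high livers. T cell-low 2 and 4 lay above every other library, but Got1 was picked here for its likeness to Ppargc1a over these same libraries. Got1 did not pass (log2FC 1.09, adjusted p = 0.238, limma), but did so on omitting T cell-low 1 (adjusted p = 0.0356).

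For the other members, the nearest genes, with this root mean square difference in parentheses, were Qdpr (0.125) and Pgrmc1 (0.169) for Pygl, which itself deviated by 0.475, and Cdc34 (0.0966) and Rarres2 (0.102) for Fbp1, which deviated by 0.358. Gss (0.143) and Safb2 (0.146) were nearest to Pcx, Dnmbp (0.274) and Fxr2 (0.275) to Pck1, and Vav2 (0.216) and Clk3 (0.231) to G6pc. Acaca (0.239) and Rnf13 (0.255) were nearest to Pklr, Hnrnpf (0.199) to Slc2a2, and Togaram1 (0.164) and Paip1 (0.188) to Gys2. Of these, Acaca and Hnrnpf share at least 20% of their 3′ end sequence with other genes, and Cdc34 shares 12.6%.

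**Figure D3:**
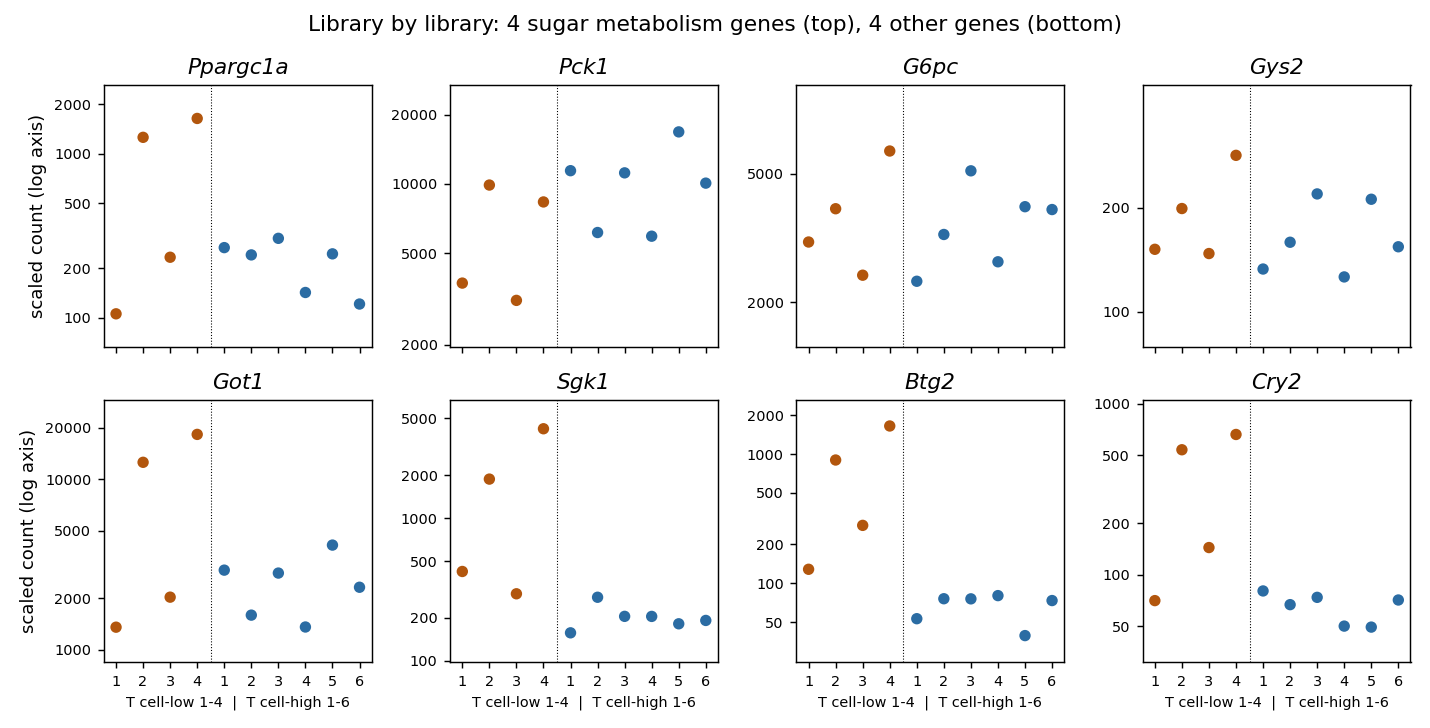
Scaled count (log axis) in each library, T cell-low 1 to 4 left of the dotted line and T cell-high 1 to 6 right of it, for Ppargc1a, Pck1, G6pc and Gys2 above and Got1, Sgk1, Btg2 and Cry2 below. T cell-low 2 and 4 hold the highest values of Ppargc1a, Got1, Sgk1, Btg2 and Cry2, while Pck1 in these 2 libraries (9875 and 8339) lies inside the T cell-high range.

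Pklr, pyruvate kinase of liver and red cells, catalyses the last step of glycolysis. Its values were 90.6, 44.0, 131 and 104 scaled counts in T cell-low livers 1 to 4, against a lowest, median and highest value of 96.7, 131 and 164 in T cell-high livers. T cell-low 1 and 2 lay below every T cell-high library, and the other pair lay among them. This was a log2FC of -0.54 (SE 0.30, adjusted p = 0.208, limma). Red cell markers (6 tested genes) summed to 43160 to 98190 scaled counts in the T cell-low group. In the T cell-high group they summed to 19680 to 51930. Of these genes 2 were called higher (Hba-a2 and Slc4a1) and 0 lower, where 5.39% of all tested genes were called higher. Slc4a1 averaged 9.89 in the T cell-high group and passed the minimum mean of 10 only through the T cell-low group. The red cell genes had 5 positive fold changes and 1 negative, that of Hbb-bs. Hbb-bs had 118 to 215 scaled counts in T cell-low livers. Its values were 5228, 7215, 3465 and 9359 in T cell-high 1, 3, 5 and 6. In T cell-high 2 and 4 they were 99.7 and 16.2. The log2 fold change of Hbb-bs was -2.80 (adjusted p = 0.208, limma). The part of red cells in the Pklr values was not tested.

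Slc2a2, the glucose transporter GLUT2, carries glucose both ways across the hepatocyte membrane. T cell-low livers 1 to 4 had 559, 579, 950 and 729 scaled counts, against a lowest, median and highest value of 797, 986 and 1365 in T cell-high livers. T cell-low 1, 2 and 4 lay below every T cell-high library, and T cell-low 3 lay inside their range. The log2 fold change was -0.55 (SE 0.22, 95% interval -1.03 to -0.06, adjusted p = 0.107, limma), and -0.24 with the 4-library covariate (adjusted p = 0.663).

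The wider glucose genes, 126 in 6 lists that include the 9, were called lower more often than higher. Of 108 tested, 13 were called lower (12%, against 7.39% of all tested genes) and 3 higher (2.78%, against 5.39%), and the median log2 fold change was -0.242, against 0.0032 over all tested genes. The 13 include G6pdx, which passed the minimum mean of 10 only through the T cell-high group. The counts of genes called lower and higher moved with single libraries. On omitting T cell-low 1 they were 26 lower and 18 higher, and on omitting T cell-low 2, 3 and 4 they were 1, 6 and 2 lower and 0, 1 and 0 higher. On omitting T cell-high 1, 3, 5 and 6 they were 4, 3, 3 and 5 lower and 1 higher each time, on omitting T cell-high 2 they were 23 lower and 6 higher, and on omitting T cell-high 4 they were 14 lower and 2 higher. With the 4-library covariate 0 were called, as were 0 of all genes (1788 of all genes at an unadjusted p below 0.05, limma).

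**Figure D4:**
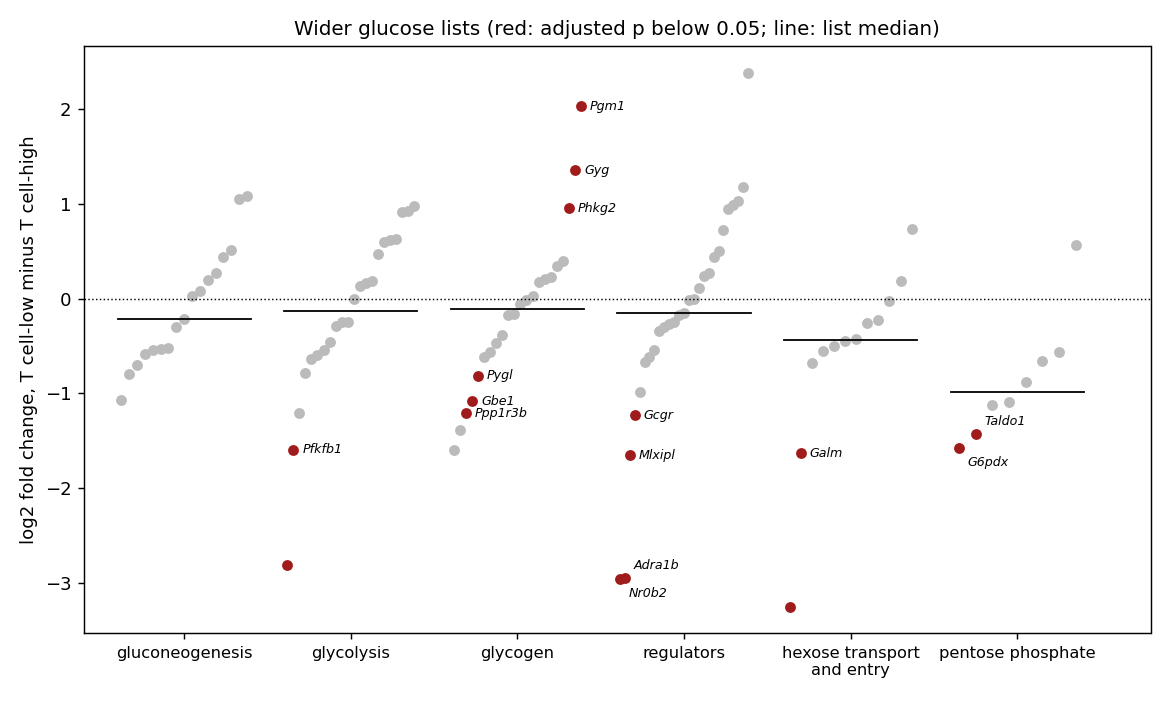
Log2 fold change, T cell-low minus T cell-high, of each tested gene of the 6 glucose lists, with called genes in red, most of them named, and the list median as a line. The glycogen list has 3 genes called on each side of 0, and the gluconeogenesis list has none.

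Of the 17 tested gluconeogenesis genes 0 passed, with 8 positive and 9 negative fold changes and a median of -0.213.

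Of 22 tested glycolysis genes 2 fell, including Pfkfb1, and 0 rose. Over all tested genes 7.39% fell and 5.39% rose, and this and each later list count is to be read beside these shares. Pfkfb1, the liver enzyme that makes and removes fructose 2,6-bisphosphate, averaged 30.3 ± 14.7 scaled counts in the T cell-low group, against 98.1 ± 46.4 in the T cell-high group (log2FC -1.59, SE 0.44, adjusted p = 0.0367, limma). The groups overlapped, since T cell-low 1 (51.4) lay above T cell-high 2 and 4 (33.9 and 50.7), and with the 4-library covariate the value was -0.55. Its call was lost in 7 of the 10 fits that omit 1 library (on omitting T cell-low 2, 3 or 4 or T cell-high 1, 3, 5 or 6), with an adjusted p of at most 0.104. Pgam1, a phosphoglycerate mutase whose 3′ end is shared with pseudogenes, did not pass (log2FC 0.48, adjusted p = 0.146, limma), but did so on omitting T cell-high 2 (adjusted p = 0.0344).

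Among 22 tested glycogen genes 3 fell and 3 rose, with a median of -0.11. Besides Pygl, the genes that fell were Ppp1r3b and Gbe1. Ppp1r3b, the liver subunit that targets protein phosphatase 1 to glycogen and so activates the synthase, had 1057, 390, 817 and 907 scaled counts in T cell-low livers 1 to 4, against 1405 to 2197 in T cell-high livers. The groups did not overlap (log2FC -1.21, SE 0.26, adjusted p = 0.0192, limma), and the call was lost on omitting T cell-low 2 alone (adjusted p = 0.0555). Gbe1, the glycogen branching enzyme, had 337, 212, 400 and 326 scaled counts in T cell-low livers 1 to 4, against 450 to 884 in T cell-high livers, again with no overlap (-1.08, SE 0.24, adjusted p = 0.0204, limma). Its adjusted p was 0.0778 and 0.0656 on omitting T cell-low 2 and 4, and 0.0510 and 0.0506 on omitting T cell-high 3 and 5. With the 4-library covariate the log2 fold change of Gbe1 was -0.64 (adjusted p = 0.277).

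The glycogen genes that rose were Gyg, Phkg2 and Pgm1. Gyg, glycogenin, the protein on which a new glycogen chain starts, had 65.4, 142, 93.3 and 80.8 scaled counts in T cell-low livers 1 to 4, against 23.0 to 46.4 in T cell-high livers (log2FC 1.36, SE 0.28, adjusted p = 0.0172, limma). The groups did not overlap, and the adjusted p was 0.0692 and 0.0502 on omitting T cell-low 2 and 4. Phkg2, the liver catalytic subunit of phosphorylase kinase, which activates Pygl protein, had 92.9, 158, 148 and 156 scaled counts in the T cell-low libraries, against 46.7 to 88.4 among the T cell-high ones (0.96, SE 0.26, adjusted p = 0.0333, limma), with no overlap. Its call was lost in 8 of the 10 fits that omit 1 library, all but those omitting T cell-low 1 and T cell-high 2, with an adjusted p of at most 0.111. The symbol Pgm1 had 150 ± 71.9 scaled counts in the T cell-low group, against 41.0 ± 33.1 in the T cell-high group (2.04, SE 0.53, adjusted p = 0.0311, limma). Its call was lost in 7 of those fits (on omitting T cell-low 2, 3 or 4 or T cell-high 1, 3, 5 or 6; at most 0.0993). With the 4-library covariate its fold change was 1.09. Mouse symbols Pgm1 and Pgm2 have each been a synonym of the other, and the annotation behind the table is not given in the sources used here, so which phosphoglucomutase either one is cannot be fixed. Pgm2 (0.18, adjusted p = 0.493) and Ugp2, which makes UDP-glucose (-0.17, adjusted p = 0.677), did not pass.

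Of 27 tested regulators 4 fell and 0 rose. Mlxipl encodes ChREBP, a carbohydrate-responsive factor that is known to drive Pklr. It had 347, 118, 256 and 112 scaled counts in T cell-low livers 1 to 4, against 492 to 710 in T cell-high livers, with no overlap (log2FC -1.65, SE 0.30, adjusted p = 0.0122, limma), and its adjusted p was 0.0506 on omitting T cell-low 2. Gcgr, the glucagon receptor, had 402, 145, 161 and 168 scaled counts in the T cell-low libraries, against 345 to 624 among the T cell-high ones, and T cell-low 1 alone lay inside the T cell-high range (-1.23, SE 0.29, adjusted p = 0.0242, limma). Adra1b, an alpha-1 adrenergic receptor through which catecholamines are known to start glycogen breakdown, had 466, 21.2, 122 and 47.9 scaled counts in the T cell-low libraries, against 305 to 980 among the T cell-high ones, and again T cell-low 1 alone lay inside the T cell-high range (-2.95, SE 0.65, adjusted p = 0.0202, limma). Nr0b2, the repressor SHP, had 30.6 ± 41.6 scaled counts in the T cell-low libraries, against 155 ± 95.3 among the T cell-high ones (-2.96, SE 0.78, adjusted p = 0.0326, limma), and -1.54 with the 4-library covariate.

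Calls of these regulators were lost when single libraries were left out. For Adra1b the adjusted p was 0.0714 and 0.0740 on omitting T cell-low 2 and 4. For Gcgr and Nr0b2 the call was lost in 7 of 10 fits each, those omitting T cell-low 2, 3 or 4 or T cell-high 1, 3, 5 or 6 (at most 0.0905 for Gcgr and 0.115 for Nr0b2). Creb3l3 (-0.24, adjusted p = 0.570) and Cebpa (-0.34, adjusted p = 0.313), liver transcription factors of high level in these libraries, did not pass.

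Of 12 tested genes of hexose transport and entry 2 fell and 0 rose (median -0.437), and of 8 pentose phosphate genes 2 fell and 0 rose (median -0.988). Galm, the aldose mutarotase, had 65.9 ± 48.8 scaled counts in the T cell-low libraries, against 170 ± 61.5 among the T cell-high ones (log2FC -1.63, SE 0.47, adjusted p = 0.041, limma), and -1.09 with the 4-library covariate. Sord and Khk, which make and phosphorylate fructose, did not pass (-0.50, adjusted p = 0.267, and -0.26, adjusted p = 0.363).

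Taldo1, transaldolase, had 294 ± 193 scaled counts in the T cell-low group, against 708 ± 184 in the T cell-high group (-1.43, SE 0.35, adjusted p = 0.0264, limma), and -0.95 with the 4-library covariate. The other gene that fell was G6pdx, the entry enzyme of the pathway, named after its value was seen. It had 6.78 ± 2.50 scaled counts in the T cell-low libraries, against 22.4 ± 8.40 among the T cell-high ones. The log2FC was -1.57 (adjusted p = 0.0292, limma). G6pdx passed the minimum mean of 10 only through the T cell-high group. Fits that omit a library or use the 4-library covariate are not given for it. Tkt, transketolase, did not pass (-0.56, adjusted p = 0.160), nor did Pgls, which shares part of its 3′ end with Fam129c (0.57, adjusted p = 0.197). Taldo1 lost its call in 7 of 10 fits, those omitting T cell-low 2, 3 or 4 or T cell-high 1, 3, 5 or 6 (at most 0.0936). Galm lost its call in 6, those omitting T cell-low 2 or 4 or T cell-high 1, 3, 5 or 6 (at most 0.138).

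Gene lists that mark feeding, hormones and sampling also differed between libraries, and their part in the values of the 9 genes was not tested. Over all tested genes, 7.39% were called lower and 5.39% higher. Of 9 tested genes known to rise in fasted liver 3 fell and 0 rose, including Acot1, an acyl-CoA thioesterase that shares part of its 3′ end with other genes (log2FC -3.83, adjusted p = 0.00331, limma). Of 10 genes known to rise in refed liver 5 fell and 0 rose, including Acacb, an acetyl-CoA carboxylase (-2.21, adjusted p = 0.0108), and Me1, malic enzyme, whose 3′ end is shared (-2.26, adjusted p = 0.0143). The median log2 difference of the refed list from the T cell-high mean was -0.0251, -2.63, -0.918 and -2.0 in T cell-low 1 to 4, and -0.370 to 0.450 in T cell-high libraries. For the fasted list it was -0.855, -0.632, -2.41 and -0.042 in T cell-low 1 to 4, and -0.235 to 0.252 in T cell-high libraries. Leaving out T cell-low 2 ended the call of Me1 (adjusted p = 0.0616, limma).

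T cell-low 2 and 4, the libraries with high Ppargc1a, also had the highest medians of 2 hormone and stress lists. For the glucocorticoid and cAMP list (8 tested genes, 1 called higher, Sgk1) the median log2 deviation, measured from the mean of the T cell-high group, was -0.472, 1.67, 0.141 and 1.89 in T cell-low 1 to 4, and -0.473 to 0.456 in T cell-high libraries. For the immediate early list (12 tested, 4 called higher) it was 0.179, 2.13, 1.21 and 2.68, and -0.584 to 0.457 in T cell-high libraries. For the clock list (13 tested, 3 called higher and 1 lower) this median deviation was -0.182, 0.715, 0.984 and 1.58, and -0.165 to 0.222 in T cell-high libraries. T cell-low 3 thus exceeded T cell-low 2 there. The clock gene called lower, Npas2, averaged 5.64 in the T cell-low group and 20.3 in the T cell-high group. Npas2 passed the minimum mean of 10 only through the T cell-high group. Among the immediate early genes called higher, Myc averaged 47.7 in the T cell-low group and 3.67 in the T cell-high group. Myc passed the minimum mean of 10 only through the T cell-low group, so the immediate early count is partly set by the filter. Sgk1, a kinase induced by glucocorticoids, had 423, 1873, 295 and 4217 scaled counts in T cell-low livers 1 to 4, against 157 to 279 in T cell-high livers (log2FC 2.31, adjusted p = 0.0291, limma).

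Btg2, an antiproliferative gene, had 128, 899, 281 and 1647 scaled counts in T cell-low livers 1 to 4, against 39.4 to 80.3 in T cell-high livers (log2FC 2.88, adjusted p = 0.0141, limma). Klf6, a transcription factor, had 357, 1829, 693 and 2949 scaled counts in the T cell-low libraries, against 166 to 357 among the T cell-high ones (log2FC 2.27, adjusted p = 0.0191, limma). Cry2, a clock repressor, had 70.4, 538, 144 and 661 scaled counts in the T cell-low libraries, against 49.3 to 80.2 among the T cell-high ones (log2FC 1.92, adjusted p = 0.0345, limma). Tef, a clock output factor, had 322, 2257, 986 and 1516 scaled counts in the T cell-low libraries, against 304 to 397 among the T cell-high ones (log2FC 1.58, adjusted p = 0.0297, limma). For these genes and Sgk1, T cell-low 2 and 4 held the 2 highest values. Single libraries ended each call, at most to an adjusted p of 0.0617 for Btg2 (on omitting T cell-low 2) and 0.0755 for Klf6 (on omitting T cell-low 2 or 4). For Sgk1 it reached 0.106 (on omitting T cell-low 2 or 4 or T cell-high 1, 3, 5 or 6), for Tef 0.105 (the same libraries or T cell-low 3) and for Cry2 0.125 (all but T cell-low 1 and T cell-high 2).

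Position along the liver lobule and other cell types were read from marker lists, beside shares of 7.39% called lower and 5.39% called higher over all tested genes. Periportal hepatocytes, where glucose production is known to be highest, had 2 of 10 markers called higher and 3 lower, including Sdsl (424 ± 253 scaled counts in the T cell-low group, against 66.3 ± 12.6 in the T cell-high group, log2FC 2.38, adjusted p = 0.012, limma) and Cyp2f2 (-1.39, adjusted p = 0.012; -0.91 with the 4-library covariate). Of 10 pericentral markers 0 rose and 3 fell, including Cyp1a2 (-1.92, adjusted p = 0.0263). The Cyp1a2 call was lost on omitting T cell-low 2 (adjusted p = 0.0978) or 4, or T cell-high 1, 3, 5 or 6.

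Neutrophil markers summed to 649 to 1755 scaled counts in the T cell-low group, against 45.0 to 219 in the T cell-high group. Of the tested genes 4 of 4 were called higher, while 7 of 11 were below the filter and 0 were at 0 in all libraries. Ngp and Retnlg averaged 1.45 and 8.23 in the T cell-high group and passed the minimum mean of 10 only through the T cell-low group. The count of 4 of 4 is therefore partly set by the filter. S100a8 and S100a9 averaged 44.6 and 48.5 in the T cell-high group. Macrophage markers (10 tested), stellate cell markers (8 tested) and bile duct markers (3 tested of 6) had 0 calls, and endothelial markers had 2 of 8 called higher. Lymphocyte markers had 1 of 10 above the filter, not called, and the 6 pancreas markers 1, the elastase gene Cela1, which fell. The part of these cells in the values above was not tested. The 5 skeletal muscle markers, a source of other phosphorylase and phosphofructokinase isoforms, summed to at most 20.2 scaled counts in the T cell-low group, against 12.2 in the T cell-high group, and 1 of them was listed at 0 in all.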

How the data were processed

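Total RNA of mouse liver was sequenced in 10 libraries from transcript 3′ ends (QuantSeq), per the labels' protocols. The submitters' processing notes name STAR, DESeq2 and mm10. The sources used here name no read counter and no annotation. The deposited signal per gene and library is a count scaled by the authors to a common depth. Values are not whole numbers and whole reads could not be recovered, so read depth is unknown and no counting interval or floor is given. Scaled totals are in the report.

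Groups come from sample titles, and table columns were assigned to samples by the code in each sample's description. The 11110 genes whose mean over all libraries was at least 10 entered the test. Values plus 1 were compared on the log2 scale with limma 3.58.1 in R 4.3.3 (variance trend, group as the only term, two-sided, Benjamini-Hochberg over all tested genes, called below 0.05), the test named for scaled values in place of a quasi-likelihood count test. Fold changes are on the log2(value + 1) scale (T cell-low minus T cell-high), which understates the change of low genes. Calls were tested on simulated data. The 9 genes, the gene lists and the tests were chosen with earlier results of these data known. Named genes are the 9, up to 5 called genes per direction of each glucose list (mean of at least 50), its 2 highest not called, up to 2 called genes of each context list and the 2 genes closest to each of the 9. Some genes chosen by this rule are not reported here. Motifs and the within-library differences of gene pairs were added after the values were seen. Alternatives covered scaling, limma options, array weights, filter, pseudocount, a replicate block, the library set and each library left out. Positions are from GENCODE vM21 (symbols of 24490 genes matched) and promoters from RefSeq. Shared 3′ ends were scored over the final 400 bases of each transcript, as the share of 50-base words also present in other genes (uncertain from 20%). All 9 had at most 2.1%. Figures used matplotlib 3.10.9 in Python 3.11.15.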

Additional observations from a re-analysis of the deposited data

Results flagged for a closer look

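In 5 of 84 sets of 1 gene in 1 group, 1 library lay far from the others of its group by Dixon's test, and chance alone gives about 1 in 20. None of the 9 genes was among them. Gcgr was high in T cell-low 1 (402 scaled counts, the next at 168). Phkg2 was low in T cell-low 1 (92.9, the next at 148), as was Pgam1 (2996, the next at 4214). In T cell-high 2, Pgam1 (4662, the next at 2995) and the symbol Pgm1 (103, the next at 46.2) were high.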

How the results depend on the processing

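All 9 genes kept their direction and their side of the threshold under median-ratio scaling, robust moderation, no variance trend, pseudocounts of 0.5 and 10, a minimum mean of 50 and no filter. For Pygl this was narrow without a variance trend (adjusted p = 0.0497, limma), and without a filter its adjusted p was 0.0379. Scaling to equal totals moved the median of all genes to -0.11 (log2) and turned G6pc to -0.0361. Array weights gave 3266 calls over all genes, 2 of the 9 lower (Fbp1 at -0.65, adjusted p = 0.0202, limma) and 13 higher and 28 lower wider glucose genes. Without a variance trend 852 genes were called, with 8 wider genes lower. With the 4-library covariate 0 genes were called, 0 of the 9 and 0 wider genes higher or lower, and Pygl was -0.97. Leaving out 1 library gave 108 to 3622 calls over all genes, 0 to 2 of the 9 higher and 0 to 2 lower, and 0 to 18 wider genes higher and 1 to 26 lower. The log2 fold changes then ranged from -0.15 to 0.28 for G6pc, -0.70 to -0.42 for Fbp1, 0.43 to 0.61 for Pcx, 0.59 to 1.90 for Ppargc1a and -0.95 to -0.72 for Pygl. The causes were not tested. Read depth is not given by these scaled values.

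The group labels share the numbers 1 to 4, and deviations of same-numbered libraries correlated at 0.104, 0.211, -0.0988 and -0.151. No such values are given for differently numbered libraries, so it cannot be decided from these whether the numbers pair the libraries. With these 8 libraries, the fit with the replicate block called 231 genes, 0 of the 9, and 0 higher and 5 lower wider genes, with Pygl at -0.90 (adjusted p = 0.0816, limma). The same libraries without the block, a fit chosen after seeing the data, gave 13, 0, 0 and 0, with Pygl at -0.90 (adjusted p = 0.100).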
